A study of Mus musculus with 4 samples.

Results

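The *Spp1*+ *Arg1*+ macrophages of bleomycin-treated mouse lung were examined as single cells. They were chosen by unique molecular identifiers (UMIs, each counting 1 captured RNA molecule): a cell had to hold at least 10 *Spp1* UMIs, at least 2 *Arg1* UMIs and at least 1 UMI each of *Cd68* and *Ptprc*, and none of *Cd3e*, *Cdh5*, *Pdgfra* or *Epcam*. The rule was applied to cells with 200 to 7500 detected genes and at most 15% mitochondrial UMIs, which were 30860 of 32121 cells in all, and it took 81 of them. *Spp1*, *Arg1* and the other genes of the rule therefore describe how the cells were chosen and were not tested.

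All 4 mice received 0.8 U/kg bleomycin, a drug whose lung injury is followed by fibrosis, through the trachea and were examined on day 14, and no untreated mouse is among the samples used here. Of the 4, 2 were WT littermates and 2 were *Tubb3*-/-, in which Cre was knocked into both copies of *Tubb3*, the gene of β-III tubulin, at the start of its coding sequence, so that the loss is present in every cell of the body. Each lung gave a whole-cell library, depleted of TER-119+ erythroid cells, and a mural cell-enriched library, further depleted of cells with CD31, CD45 or EpCAM. The 4 whole-cell libraries and the 4 mural cell-enriched libraries were each tagged and run as 1 pool. From the mural cell-enriched pool, MCAM+ PDGFRα- mural cells and MCAM- cells were sorted and mixed in equal parts. Because CD45 is the product of *Ptprc*, the depletion acted on these macrophages directly: 64 of the 81 came from the whole-cell libraries and 17 had escaped it. The ages of the individual animals are not used here.

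Osteopontin, the product of *Spp1*, is a secreted glycoprotein of the extracellular matrix that binds integrins and CD44. Arginase 1, the product of *Arg1*, turns arginine into ornithine, from which cells make polyamines and proline, and is a classical marker of alternatively activated macrophages. In injured lung, macrophages recruited from blood monocytes can pass through a state with high *Spp1*, *Trem2*, *Cd9* and *Fabp5*, often called scar-associated or profibrotic, while resident alveolar macrophages carry *Siglecf*, *Marco*, *Krt79* and *Ear1*, and interstitial macrophages carry complement C1q and MHC class II genes.

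In GRCm38 the *Spp1* gene lies on chromosome 5 from 104435118 to 104441050, where its span overlaps that of Gm42793, and the *Arg1* gene on chromosome 10 from 24915221 to 24927484. *Arg1* was the narrow step of the rule. Among kept cells 2340 held at least 10 *Spp1* UMIs, of which 825 had no *Ptprc* UMI and 905 had a UMI of the fibroblast gene *Pdgfra*, and requiring 2 *Arg1* UMIs left 164. *Cd68*, a lysosomal membrane protein of macrophages, and *Ptprc* left 160, and the 4 excluded genes removed 79 of these, most often for a UMI of the endothelial gene *Cdh5* (37 cells). Just outside the *Arg1* threshold, among *Ptprc*+ *Cd68*+ cells without the excluded genes, 21 cells with at least 10 *Spp1* UMIs held 1 *Arg1* UMI and had a median of 84 *Spp1* UMIs. Just inside it, 13 cells held 2 *Arg1* UMIs and had a median of 136 *Spp1* UMIs. Around the *Spp1* threshold the cells were few: 4 chosen cells held 10 to 19 *Spp1* UMIs, and 3 cells with enough *Arg1* held 5 to 9.

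Free RNA in the droplets was gauged in cell types that should lack these transcripts. Any *Spp1* UMI was found in 56.7% of 1528 T cells (median depth 6886.5 UMIs), against all 81 chosen cells (median depth 26983 UMIs), but 10 or more in only 0.131% of the T cells and in 1.74% of 4256 endothelial cells. At least 2 *Arg1* UMIs were held by 0.131% of the T cells and 0.0705% of the endothelial cells. After every cell was thinned to 10000 UMIs, *Arg1* was detected in 91.4% of the chosen cells, 0.638% of alveolar macrophages, 2.67% of interstitial macrophages and 1.31% of T cells, and before thinning in 100%, 1.46%, 3.53% and 0.916%. The contrast among macrophages was largely fixed by the rule. It required *Arg1* in the chosen cells and took every macrophage that met it out of the other groups. The secretoglobin *Scgb1a1*, made by airway club cells, lay at 707, 754, 556 and 505 normalized CPM in the chosen cells of the 4 mice and at 766, 786, 760 and 713 in their alveolar macrophages (log2 fold change -0.29, adjusted p = 0.208 by edgeR).

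The chosen cells were deep and held the macrophage genes that the rule did not use. Their median was 26983 UMIs (range 10395 to 51446) and 5098 genes per cell, and 2 of the 81 were called doublets. All 81 held UMIs of *Trem2*, the lipid-sensing receptor of scar-associated macrophages, of the tetraspanins *Cd9* and *Cd63*, of the galectin *Lgals3*, of fibronectin *Fn1* and of the mannose receptor *Mrc1*. *Gpnmb*, a lysosomal glycoprotein on the same marker list, was found in 70.4% of them and in 80.2% of alveolar macrophages, and *Nos2*, the inducible nitric oxide synthase of classically activated macrophages, in none, which at 2200119 UMIs in all allows a level of up to 1.36 counts per 1000000 UMIs (CPM). *Tubb3* was also at 0 UMIs in the chosen cells of all 4 mice, so the knockout could not be checked within them. *Trem2* was not particular to the chosen cells. Its summed level per mouse was 278 to 548 CPM in them, 181 to 310 in alveolar and 364 to 533 in interstitial macrophages. Across the 8 libraries the total depth was 41462258 to 95036340 gene UMIs, no barcode was shared by libraries of 1 pool, and 59 were shared across the pools, 1 of them that of a chosen cell.

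The first comparison was of the number of these cells between genotypes, which the study examined as part of the cellular composition of the fibrotic lung. In the whole-cell libraries they made up 12 of 3406 kept cells in WT replicate 1 (0.352%, 95% Wilson interval 0.202 to 0.615%) and 6 of 3119 in WT replicate 2 (0.192%, 0.0882 to 0.419%). In the *Tubb3*-/- mice they made up 30 of 4179 in replicate 1 (0.718%, 0.503 to 1.02%) and 16 of 3456 in replicate 2 (0.463%, 0.285 to 0.751%). Both *Tubb3*-/- shares lay above both WT shares, while the interval of *Tubb3*-/- replicate 2 overlapped that of each WT mouse and the interval of *Tubb3*-/- replicate 1 that of WT replicate 1. The group means were 0.272 ± 0.113% for WT and 0.590 ± 0.180% for *Tubb3*-/- (SD, n = 2 mice each), a ratio of 2.17, and the exact two-sided permutation test gave p = 0.33, the smallest value 2 mice against 2 can reach. Intervals cover counting error only.

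The order of the mice was the same against macrophages as the denominator. Of *Ptprc*+ *Cd68*+ cells without the excluded genes, the *Spp1*+ *Arg1*+ cells were 12 of 476 (2.52%) and 6 of 450 (1.33%) in WT and 30 of 490 (6.12%) and 16 of 460 (3.48%) in *Tubb3*-/- mice. The means were 1.93 ± 0.840% and 4.80 ± 1.87% (SD, n = 2), with an exact two-sided permutation p of 0.33. In the mural cell-enriched libraries the depletion of CD45+ cells and the sort acted on the number. There WT mice gave 1 of 3974 cells and 0 of 3479, which allows up to 0.0862%. The *Tubb3*-/- mice gave 7 of 4815 (0.145%) and 9 of 4432 (0.203%). Depth differed with genotype, with a median of 9186 and 10091 UMIs per cell in the WT and 12318 and 11484.5 in the *Tubb3*-/- whole-cell libraries. With the rule applied after thinning each cell to 5000 UMIs, the shares were 0.192% and 0.199% in WT and 0.549% and 0.348% in *Tubb3*-/- mice.

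**Figure D1:**
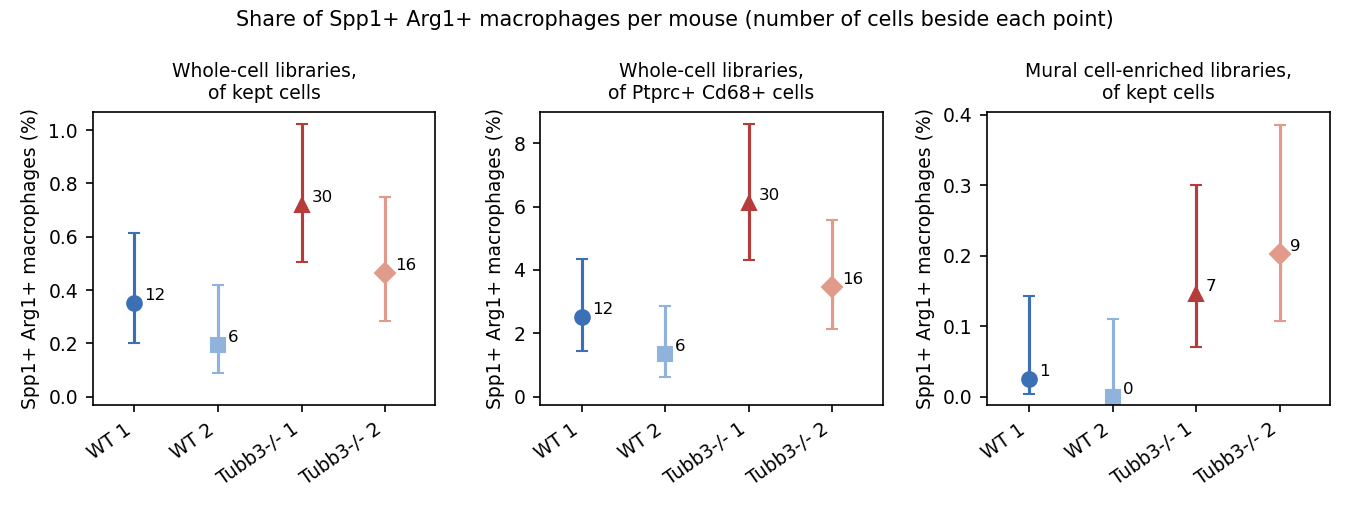
Share of *Spp1*+ *Arg1*+ macrophages (y axis, percent) in each mouse (x axis), of kept cells in the whole-cell libraries, of *Ptprc*+ *Cd68*+ cells in the same libraries, and of kept cells in the mural cell-enriched libraries. Points are single mice, bars are 95% Wilson intervals and the number beside each point is its count of cells. Both *Tubb3*-/- mice lie above both WT mice in each panel, from 0.463 to 0.718% against 0.192 to 0.352% in the first.

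*Spp1* and *Arg1* varied widely from cell to cell within each mouse. The median number of *Spp1* UMIs per cell was 211 and 184.5 in the WT and 190 and 263 in the *Tubb3*-/- mice, and that of *Arg1* was 6 and 9 against 7 and 6. The medians of the genotypes overlapped for both genes. Summed over the chosen cells of a mouse, *Spp1* was at 13587 and 9718 CPM in WT and 18631 and 16494 in *Tubb3*-/- mice, with 35.2% of the UMIs of *Tubb3*-/- replicate 1 in a single cell of 6537. Without the highest cell of each mouse the sums were 11156 and 7635 in WT and 12662 and 14996 in *Tubb3*-/- mice. *Arg1* summed to 353 and 320 CPM in WT and 396 and 455 in *Tubb3*-/- mice.

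**Figure D2:**
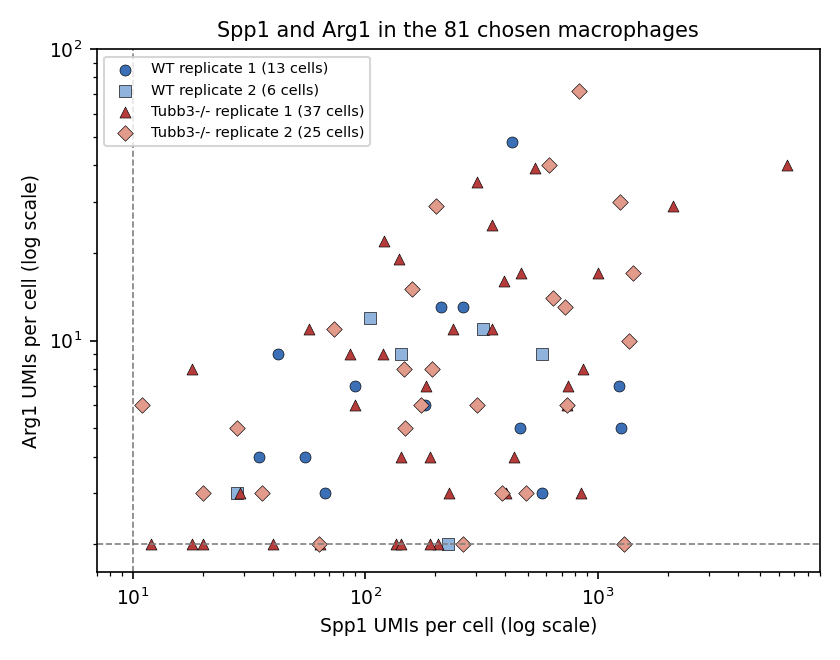
UMIs of *Spp1* (x axis, log scale) and *Arg1* (y axis, log scale) in each of the 81 chosen macrophages, coloured by mouse. Dashed lines mark the thresholds of 10 *Spp1* and 2 *Arg1* UMIs. Cells of all 4 mice are mixed over most of the range, from 11 to 6537 *Spp1* UMIs.

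The part of the *Arg1* and *Spp1* of the lung held by the chosen cells was largely fixed by the rule and is given as a description. They carried 39.9% and 18.7% of all *Arg1* UMIs of the kept cells of the WT whole-cell libraries and 45.1% and 31.3% of those of the *Tubb3*-/- libraries, in at most 1.25% of the UMIs of any of these libraries. Of *Spp1* they carried 12.7%, 4.43%, 11.3% and 5.99% in the same order. Alveolar macrophages were a further source of *Spp1*: 76.9% of 481 held 10 or more UMIs, and their summed level was 2235 and 1379 CPM in WT and 4145 and 5943 in *Tubb3*-/- mice. Cells with both transcripts above the thresholds could not stand in that group, because they would have been chosen.

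The 81 cells were not uniform in macrophage identity. Of the 4 alveolar macrophage genes *Siglecf*, *Marco*, *Krt79* and *Ear1*, 37 cells held none, 22 held 1 and 22 held at least 2, while 42 held at least 2 UMIs of *C1qa*, a subunit of the complement factor C1q. Only 5 cells had both *C1qa* and at least 2 alveolar genes, and 22 had fewer than 2 of either kind. From the cells with none to those with at least 2 alveolar genes, the summed level of *Apoe*, a lipid-carrying apolipoprotein, was 13356, 5279 and 1889 CPM, and that of *C1qa* was 1616, 637 and 283. *Plet1* ran the other way at 399, 974 and 1236 CPM, as did *Chil3*, a chitinase-like lectin, at 2620, 3674 and 5542. *Fn1* was at 2372, 2062 and 2265 CPM in the 3 sets and differed little, and *Cd9* was at 2708, 3193 and 3256. These are sums over cells with no replicate error and are given as a description.

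The mice differed in which of these cells they held. Cells with at least 2 *C1qa* UMIs were 8 of 13 in WT replicate 1, 20 of 37 in *Tubb3*-/- replicate 1 and 14 of 25 in *Tubb3*-/- replicate 2, but 0 of 6 in WT replicate 2. In that mouse the summed normalized level was 6.83 CPM for *C1qa*, 772 for *Apoe* and 294 for *Cd74*, the MHC class II invariant chain, against 961 to 1205, 8072 to 9997 and 1924 to 3064 in the other 3 mice. With 6 cells its sums stand apart from the rest, and comparisons of these genes between genotypes rest on it. Both proliferation genes *Mki67* and *Top2a* were detected in 5 cells, or 6.17%, against 6.65% of alveolar and 4.12% of interstitial macrophages. *Ccr2*, the chemokine receptor of recruited monocytes, was seen in 36 cells and *Ly6c2*, a surface protein of classical monocytes, in 6.

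The next comparison asked how these cells differed from alveolar macrophages of the same mice, here *Cd68*+ cells with at least 2 of the 4 alveolar genes (481 cells). UMIs were summed per mouse and population and tested with edgeR's quasi-likelihood test with the mouse as a block and Benjamini-Hochberg adjustment, and levels are normalized CPM. Of 9080 genes tested, 498 were called (5.48%), 262 were higher (2.89%) and 236 lower (2.6%) at an adjusted p under 0.05. The thresholds that chose the populations set them apart, so the calls describe how the chosen cells differed. Among the largest rises, *Tmem37*, a membrane protein, was at 57.4, 40.4, 97.1 and 69.1 in the chosen cells of WT replicates 1 and 2 and *Tubb3*-/- replicates 1 and 2, against 1.56 to 5.92 in alveolar macrophages (log2 fold change 4.16, SE 0.30, adjusted p = 6.73e-06). *Ecm1*, extracellular matrix protein 1, was at 278, 262, 134 and 181 against 47.9, 25.3, 25.2 and 22.6 (2.79, SE 0.17, adjusted p = 3.41e-06). In each mouse both genes were above every alveolar value.

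The rises also included *Blnk* and *Lat2*, adaptor proteins of immune receptor signalling (3.29 and 3.64 on the log2 scale), the neuregulin *Nrg1* (3.05), *Ldhb*, a subunit of lactate dehydrogenase (2.90), and the ion channel genes *Kcnk13* and *Cacna1d* (3.92 and 3.05), with *Syngr1* at 2.91. *Cspg4*, the NG2 proteoglycan used as a pericyte marker, was on the mural list and rose by 3.13 (SE 0.37, adjusted p = 0.000317), from 3.55 to 8.95 CPM in alveolar macrophages to 48.3, 101, 50.7 and 50.7, with a UMI in 39 of the 81 cells. Of the 4 mural genes tested *Cspg4* alone was called, and their median log2 fold change was 2.45. The pericyte genes *Higd1b* and *Ndufa4l2* of that list were at 0 UMIs in the chosen cells. The other 6 of its 8 genes were detected, *Acta2* in 53 and *Tagln* in 40 of the 81 cells. Most cells held few such UMIs, with medians of 1 for *Acta2* and 0 for *Tagln*. The 4 highest cells held 934 of 1087 *Acta2* and 500 of 588 *Tagln* UMIs.

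Among the genes that were lower, *Krt19*, a keratin, was at 15.1, 13.5, 8.45 and 10.8 against 358, 411, 156 and 187 (log2 fold change -4.35, SE 0.19, adjusted p = 3.65e-07). *Htr2c*, a serotonin receptor, had no UMI in the chosen cells and 126 to 261 CPM in alveolar macrophages, which makes it at least 162-fold lower. *Patj*, a cell polarity protein, had 2 UMIs and was 135-fold lower (counting interval 37.4 to 1119), and *Erc2* had 1 and was 163-fold lower (29.3 to 6464). *Cidec*, a lipid droplet protein, fell by 4.35 on the log2 scale and *Apoc1*, an apolipoprotein, by 4.15. Of the alveolar macrophage list, 7 of 13 tested genes were lower and none was higher, with a median log2 fold change of -0.58 beside 0.00045 over all genes tested. They included *Pparg*, the nuclear receptor that maintains alveolar macrophages (112, 141, 140 and 103 against 253 to 268, -1.08), and *Chil3* (3314, 4805, 4410 and 3401 against 9658 to 11452, -1.39).

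Genes of the matrix were the list with the most rises against alveolar macrophages, 8 of 15 tested with none lower and a median of 1.04. Fibronectin itself was at 2459, 2012, 2254 and 2624 CPM against 1066, 618, 1121 and 924 (log2 fold change 1.35, SE 0.12, adjusted p = 3.97e-05). The thrombospondin *Thbs1* (1.71), the membrane metalloprotease *Mmp14* (2.29), *Tgfbi*, the metalloprotease inhibitor *Timp2* and *Mmp19* rose as well. *Mmp12*, macrophage elastase, was at 18.1, 33.6, 1066 and 1853 against 5.46, 59.1, 17.4 and 122, so that WT replicate 2 was lower in the chosen cells. It was called at 3.59 (adjusted p = 0.0107) and lost the call without *Tubb3*-/- replicate 1 (2.46, adjusted p = 0.106) or *Tubb3*-/- replicate 2 (3.29, adjusted p = 0.126). Of 11 tested growth factor genes, 3 rose with a median of 0.56, among them the platelet-derived growth factor subunit *Pdgfa* (2.35) and *Igf1* (157, 175, 227 and 221 against 96.6 to 122, 0.87). The third, *Osm*, missed the threshold without *Tubb3*-/- replicate 1 (1.22, adjusted p = 0.0865) or 2 (1.20, adjusted p = 0.0715).

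Scar-associated macrophage genes moved in part. Of 16 tested, 5 rose and none fell, with a median of 0.28, namely *Apoe*, *Mmp12* (with the exceptions above), *Mmp14*, *Cd63* and *Trem2*, the last at 547, 269, 533 and 590 against 176, 173, 293 and 307.7 (1.04, SE 0.15, adjusted p = 0.00162). *Trem2* in WT replicate 2, at 269, lay within the alveolar range, as did *Apoe* in that mouse, at 760 against 177 to 931. Of 20 lysosomal genes, 5 rose with a median of 0.32, led by the cathepsins *Ctsl* (1.70) and *Ctss* (1.07). The lipid handling list was split, with 2 of 18 higher (*Apoe* and the scavenger receptor *Msr1*) and 4 lower (*Apoc1*, the cholesterol exporter *Abcg1*, *Pparg* and *Acsl1*), and its median was -0.20. Apart from the rule gene *Arg1*, the arginine and alternative activation list had 1 of 13 higher, the cytokine signalling inhibitor *Socs3* (1.44), and 1 lower, *Chil3*.

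Inflammatory genes were higher in 7 of 15 tested and lower in none, with a median of 0.87. *Il1b*, interleukin-1β, was at 1701, 1332, 1010 and 1340 against 511 to 603 (1.27, SE 0.13, adjusted p = 0.000102), and the chemokine *Cxcl16* at 75.5, 67.3, 154 and 134 against 25.2 to 34.2 (1.97). *Il6* was also called (1.58, adjusted p = 0.00751) but stood at 13.5 in WT replicate 2, below all 4 alveolar values, the lowest of which was 13.6, and it missed the threshold without *Tubb3*-/- replicate 1 (1.61, adjusted p = 0.0674) or 2 (1.26, adjusted p = 0.0728). Complement and phagocytosis genes were higher in 7 of 16 and lower in 1, *Mertk* (median 0.47), and 6 of 12 interstitial macrophage genes were higher with none lower (median 1.94). These included the fractalkine receptor *Cx3cr1* (3.36) and *C1qa* at 1224, 6.73, 1151 and 968 against 4.73 to 166. In WT replicate 2 the chosen cells were within the alveolar range for *C1qa*.

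Smaller parts of the other lists moved. Glycolysis and hypoxia genes were higher in 2 of 17 (median 0.34), the interferon response in 1 of 12 (0.56), MHC class II presentation in 3 of 9 (0.87), osteopontin receptors and integrins in 1 of 6 (0.46) and stress and dissociation genes in 2 of 16 (0.18), all with none lower. The classical monocyte list had 2 of 8 higher, *Fn1* and haptoglobin *Hp*, and 1 lower (median 1.04), and the cell cycle list 0 of 15 higher and 1 lower (median -0.69). Of the lists for other cell types, 1 of 7 fibroblast genes was higher, with none of 4 endothelial, 6 epithelial or 2 dendritic cell genes called, 1 of 5 neutrophil genes and the only erythroid gene tested lower, and 1 of 5 lymphocyte genes called each way. Their part in the results was not tested.

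Against interstitial macrophages, here *Cd68*+ cells with *C1qa* and *C1qc* and none of the 4 alveolar genes (340 cells), alveolar genes were higher and interstitial genes lower. Of 7764 genes tested in the same kind of fit, 1609 were called (20.7%), 672 were higher (8.66%) and 937 lower (12.1%) in the chosen cells, and the median over all genes was -0.017. The preparations were unequal: mural cell-enriched libraries gave 20 and 50 interstitial cells of the WT and 44 and 30 of the *Tubb3*-/- mice. Of the chosen cells they gave 1 and 0, and 7 and 9. With whole-cell libraries alone 1166 of 6387 genes tested were called. What part the preparation had in the differences was not tested. *Car4*, a carbonic anhydrase, was at 140, 143, 307.8 and 126 CPM against 5.94, 1.09, 12.9 and 2.99 (log2 fold change 4.89, SE 0.26, adjusted p = 9.66e-06). *Chil3* rose by 3.89, *Plet1* by 3.94, the formyl peptide receptor *Fpr1* by 3.88 and *Ly75*, an endocytic receptor, by 3.34. Of 10 tested alveolar macrophage genes, 9 were higher and none lower (median 1.88), and all 13 tested interstitial macrophage genes were lower (median -2.66). For every one of the 13 the 4 chosen values lay below the 4 interstitial values, as for 1174 of the 7764 genes tested. Part of this follows from the thresholds, since the interstitial cells were taken for *C1qa* and *C1qc* and for having none of 4 alveolar genes.

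Several chemokines were among the genes with the largest falls. *Ccl2*, which recruits monocytes, was at 5.73, 6.49, 12.03 and 7.25 CPM against 496, 328, 388 and 210 (log2 fold change -5.25, SE 0.24, adjusted p = 6.32e-06), *Ccl12* fell by 7.56, *Pf4* by 6.18 and *Ccl7* by 5.54. *Cxcl13*, a B cell chemoattractant, had 2 UMIs and was 399-fold lower (counting interval 110 to 3296). Over the inflammatory list, 11 of 18 genes were lower, *Tnf* among them (-2.55), and 1, *Ccl6*, was higher (median -1.66). Of the MHC class II genes, 9 of 10 were lower and none higher (median -2.90), and *Cd74* was at 2950, 279, 2697 and 1830 against 17262, 11978, 12370 and 15032 (-3.16, SE 0.43, adjusted p = 0.00102). Of 16 stress and dissociation genes, 12 were lower (median -0.90), including the heat shock gene *Hspa1a* (-2.98), and 4 of 12 interferon genes were lower (median -0.59).

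Alternative activation was divided between the populations. The chosen cells were higher in *Chil3* and in *Slc7a2*, a cationic amino acid transporter, but 8 of 18 genes of that list were lower (median -0.51), including the lectins *Mgl2* (-6.06) and *Clec10a*, the haemoglobin receptor *Cd163*, with 1 UMI and 95.1-fold lower (16.9 to 3773), and *Retnla* (5.73, 0, 4.01 and 4.35 against 23.9 to 391, -4.64).

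More lipid handling and lysosomal genes were higher than lower against interstitial macrophages. Of 17 tested lipid handling genes, 12 were higher and 3 lower, with a median of 1.12, and the 12 included *Abcg1* (1.73), the lipase *Lpl* (1527, 1648, 1531 and 1617 against 328 to 1013, 1.44) and the fatty acid binding protein *Fabp5*. *Apoe* was among the 3 that were lower, at 9626, 733, 8559 and 7679 against 18620 to 30957 (-1.99, adjusted p = 0.0483), and it missed the threshold without WT replicate 1 (-2.43, adjusted p = 0.0749), *Tubb3*-/- replicate 1 (-2.29, adjusted p = 0.0948) or *Tubb3*-/- replicate 2 (-2.30, adjusted p = 0.0806). Of 20 lysosomal genes, 8 were higher and 3 lower (median 0.26), with cathepsin *Ctsk* at 2.91, *Ctsd* at 1.19 and the proton pump subunit *Atp6v0d2* at 2.04. The scar-associated list had 6 of 16 higher and 3 lower (median 0.16).

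The matrix list had 6 of 17 higher and 1, *Plau*, lower against interstitial macrophages (median -0.34), and *Fn1* was at 2331, 1940, 2141 and 2477 against 1144 to 1669 (0.68, SE 0.10, adjusted p = 0.00186). All 4 chosen values were above the interstitial ones. With whole-cell libraries alone, however, the *Fn1* difference was 0.15 with an adjusted p of 0.580, and the transglutaminase *Tgm2* (1.74) kept its call there. Of the growth factor list, 1 of 15 genes was higher and 4 lower (median -0.47), and of the osteopontin receptors and integrins *Cd44* was higher (1412, 1934, 1112 and 1153 against 653 to 852, 0.87) and *Itga9* (-3.05) and *Itgav* lower, of 7 tested (median -0.36). *Itgav* missed the threshold without *Tubb3*-/- replicate 1 (-0.97, adjusted p = 0.0715) or 2 (-0.81, adjusted p = 0.124). Complement genes were split, 4 of 15 higher and 7 lower (median -0.36). *Cspg4* was again higher, by 2.15 (adjusted p = 0.00222). Of the remaining lists, glycolysis and hypoxia had 2 of 16 genes higher and 1 lower (median 0.31), classical monocyte genes 3 of 7 higher and 2 lower (0.54), cell cycle genes 0 of 9 called (-0.24), and neutrophil genes 2 of 4 higher and 1 lower (1.08). None of 7 fibroblast, 4 epithelial or 1 endothelial gene was called, while 2 of 3 lymphocyte genes and the only dendritic cell and erythroid genes tested were lower.

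**Figure D3:**
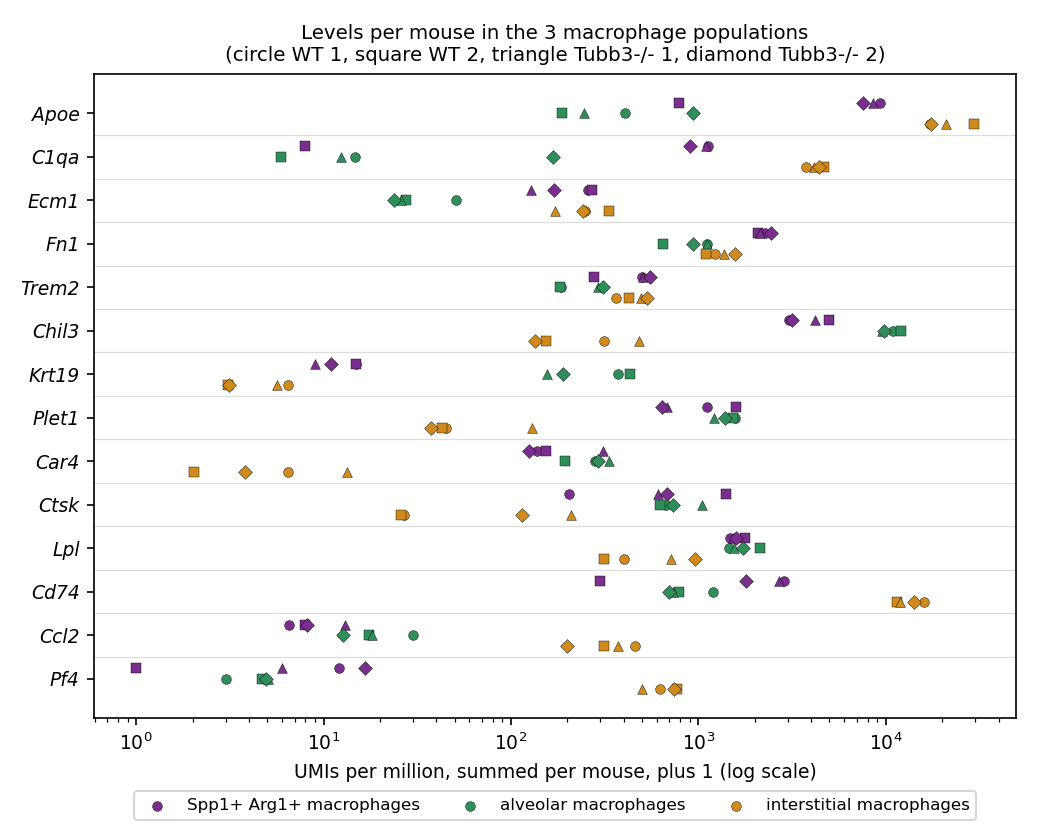
Summed levels of 14 genes (CPM plus 1, log scale on the x axis) in the *Spp1*+ *Arg1*+, alveolar and interstitial macrophages, with 1 point per mouse and population. *Apoe* and *C1qa* of the chosen cells lie between the other populations in 3 mice and near the alveolar values in WT replicate 2, *Fn1* lies above both, and *Chil3* and *Krt19* lie below the alveolar and above the interstitial values.

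Cells with at least 2 UMIs of *Ly6c2*, with *Ccr2* and without *C1qa* or the 4 alveolar genes (183 cells) served as a group near blood monocytes, but natural killer genes such as *Gzma* and *Nkg7* led them, so they are named by the genes that chose them. Of 6090 genes tested, 2522 were called (41.4%), 1248 were higher (20.5%) and 1274 lower (20.9%) in the *Spp1*+ *Arg1*+ macrophages. All 14 tested scar-associated genes were higher (median 3.72) with 16 of 19 lysosomal genes higher and 1 lower (median 1.49). Of 11 classical monocyte genes 8 were lower and 2, *Chil3* and *Fn1*, higher (median -4.68). Part of this follows from the thresholds. The comparison cells were taken for *Ly6c2* and *Ccr2* and for lacking *C1qa* and the alveolar genes, and *Cd68* was not required of them.

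Within the *Spp1*+ *Arg1*+ macrophages, *Tubb3*-/- cells were compared with WT cells over the 4 summed profiles. Of 6202 genes tested, 2 were called higher (0.0322%) and 0 lower (0%) by edgeR's quasi-likelihood test, with 436 genes at an unadjusted p under 0.05. *Mmp12* was at 17.8 and 34.1 normalized CPM in WT and 1062 and 1839 in *Tubb3*-/- mice (log2 fold change 5.95, SE 0.41, adjusted p = 0.000932). Both *Tubb3*-/- values were far above both WT values. The gene lies on chromosome 9 from 7344381 to 7369499 of GRCm38, where its span overlaps that of Mmp1b.

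The *Mmp12* difference came from few cells. Of 2227 *Mmp12* UMIs, 2142 were in 6 cells with at least 50 each, 2 in *Tubb3*-/- replicate 1 (496 and 484) and 4 in *Tubb3*-/- replicate 2 (the highest 442, 395 and 247), and the highest cells of the WT mice held 3 and 4. In 55 of the 81 cells *Mmp12* was not detected. Among all kept cells of the lung, those with at least 50 *Mmp12* UMIs numbered 11 and 7 in WT and 21 and 43 in *Tubb3*-/- mice. Of these 82, 6 were chosen cells. A further 9 met the thresholds for *Spp1*, *Arg1*, *Cd68* and *Ptprc* but held an excluded gene. They were 2 cells of WT replicate 2 and 7 of *Tubb3*-/- replicate 2. When the 4 excluded genes were dropped from the rule, an alternative chosen after seeing the data, *Mmp12* was no longer called (2.75, adjusted p = 0.824). Interstitial macrophages had *Mmp12* at 339 and 254 CPM in WT and 566 and 1776 in *Tubb3*-/- mice.

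The 6 cells with high *Mmp12* also differed from the other chosen cells in summed levels of further genes, named here after their values were seen and without a test. Against the other 75 chosen cells they had *Dcstamp*, which drives fusion of macrophages and osteoclasts, at 430 against 3.57 CPM, the chemokine *Ccl17* at 351 against 8.17, *Il7r* at 401 against 15.3, collagenase *Mmp13* at 112 against 0, and the scavenger receptor *Cd36* at 632 against 43.4. All 6 cells held a UMI of *Il7r* and *Cd36*, but 4 held one of *Dcstamp* and only 2 held one of *Ccl17* or of *Mmp13*. *Ctsl* was at 8749 against 774, *Cxcl1* at 2194 against 312 and the peroxiredoxin *Prdx1* at 7521 against 1138. Their depth was 24198 to 51446 UMIs per cell, and none was called a doublet.

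*Tagln*, the actin-binding protein transgelin of smooth muscle, was the second gene called, at 20.8 and 13.7 in WT and 287 and 467 in *Tubb3*-/- mice (log2 fold change 4.32, SE 0.41, adjusted p = 0.00606). It missed the threshold without WT replicate 2 (4.14, adjusted p = 0.100) or *Tubb3*-/- replicate 2 (3.96, adjusted p = 0.0538). Here 500 of 588 UMIs were in 4 cells with at least 20, of which 1 was from the whole-cell library of *Tubb3*-/- replicate 1 (218 UMIs) and 3 from the mural cell-enriched library of *Tubb3*-/- replicate 2 (124, 99 and 59). The preparations were unequal in these sums, since the mural cell-enriched libraries gave 1 and 0 of the chosen cells of the WT mice and 7 and 9 of those of the *Tubb3*-/- mice. In the whole-cell libraries alone *Tagln* was at 17.4 and 13.9 CPM in WT and 284 and 23.1 in *Tubb3*-/- mice, with 10 UMIs in the 16 cells of *Tubb3*-/- replicate 2, and it did not pass the filter on low counts. *Mmp12* in the same libraries was at 17.4 and 34.7 against 1223 and 1248 and was the 1 gene called there. In the 4 cells of high *Tagln* the smooth muscle genes *Acta2* and *Myh11* were at 6280 and 1156 CPM, against 74.6 and 13.6 in the other chosen cells. Without the 4 cells, left out after their values were seen, the *Tagln* difference was 1.51 (adjusted p = 0.575).

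**Figure D4:**
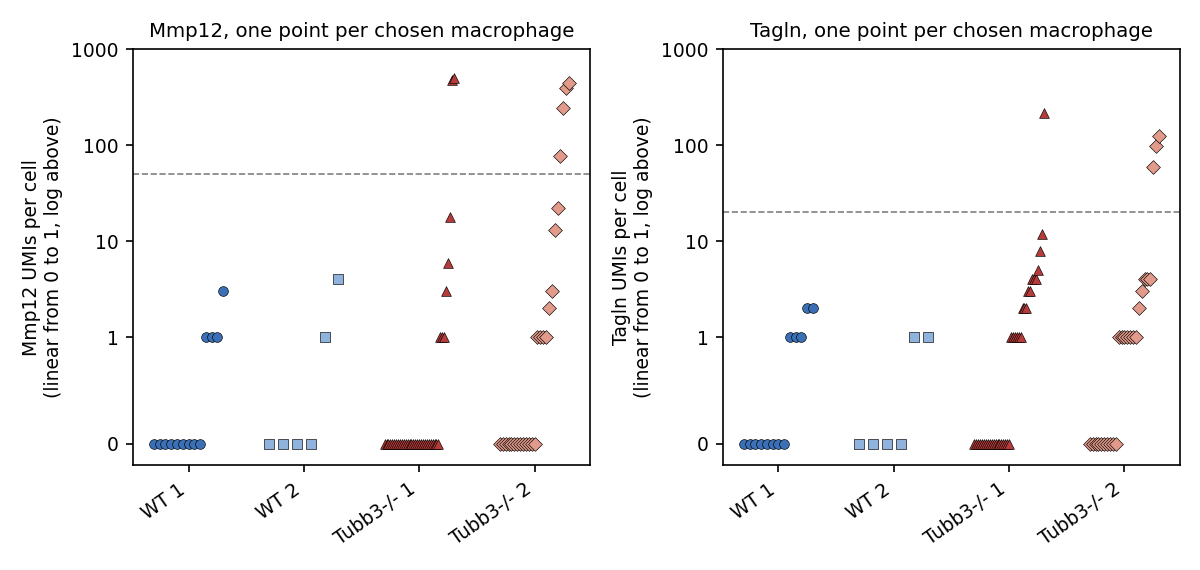
UMIs of *Mmp12* and of *Tagln* per cell (y axis, linear from 0 to 1 and log above) in each of the 81 chosen macrophages, by mouse. Dashed lines mark 50 *Mmp12* and 20 *Tagln* UMIs. The 6 cells above the *Mmp12* line and the 4 above the *Tagln* line are all from *Tubb3*-/- mice, and 1 cell is above both. Most chosen cells were from these mice, which gave 37 and 25 of the 81, against 13 and 6 from the WT mice.

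Of the marker genes of other cell types, *Tagln* alone was called between genotypes in the chosen cells, and the summed levels of the lists were as follows. The 8 mural genes summed to 111 and 174 CPM in WT and 734 and 1709 in *Tubb3*-/- mice, with 2 of the 8, *Higd1b* and *Ndufa4l2*, at 0, while the same genes summed to 306.4 and 118 and to 78.8 and 77.6 in alveolar macrophages. The fibroblast list summed to 247 and 257 in WT and 476 and 597 in *Tubb3*-/- mice, and its 6 tested genes had a median of 1.00 with none called. For neutrophil genes the sums were 433 and 445 against 255 and 130, with *Ly6g*, *Camp* and *Ngp* at 0, for epithelial genes 905 and 1070 against 760 and 672, for endothelial genes 33.3 and 62.5 against 29.1 and 37.1, and for lymphocyte genes 36.1 and 41.7 against 69.3 and 133. What part these transcripts have in the genotype differences was not tested.

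Values of the other genes with the smallest p did not pass the threshold. *Acta2*, smooth muscle actin, was at 35.7 and 41.0 in WT and 381 and 1078 in *Tubb3*-/- mice (log2 fold change 4.27, adjusted p = 0.0624), and *Tpm2*, a tropomyosin, at 11.9 and 27.3 against 123 and 258 (adjusted p = 0.173). *Cnn1*, calponin of smooth muscle, and *Ccl17* had no UMI in WT cells and 82 and 101 in *Tubb3*-/- cells (adjusted p = 0.181 and 0.158 by edgeR). By counting of UMIs alone they were at least 8.12-fold and at least 10.0-fold higher, but few cells held them. The 4 cells of high *Tagln* held 70 of the *Cnn1* UMIs, and 2 cells held 85 of the *Ccl17* UMIs. The bounds do not cover the spread between cells or mice. Collagen *Col3a1* was at 83.3 and 61.5 against 205 and 209, the stress factor *Atf3* at 167 and 130 against 340 and 425, and *Igfbp7* at 68.4 and 61.5 against 199 and 383, each with an adjusted p of 0.183. The lymphocyte adhesion molecule *Cd2* was at 116 and 150 in WT and 36.8 and 36.6 in *Tubb3*-/- mice (adjusted p = 0.173).

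No gene of most lists was called between genotypes. Among the scar-associated genes 1 of 15 tested was called, *Mmp12*, with a median of 0.34, and 5 had *Tubb3*-/- values above both WT values and 2 below, where 19.5% and 17.8% of all genes tested did so. The corresponding counts were 8 above and 1 below of 19 lysosomal genes (median 0.083), 7 and 3 of 14 matrix genes (0.26), 1 and 5 of 17 lipid handling genes (-0.0096), 2 and 4 of 11 arginine and alternative activation genes (-0.064) and 3 and 4 of 13 inflammatory genes (-0.38). All 7 tested interferon genes had a positive difference (median 0.39), with 5 above both WT values, and 7 of 16 stress genes were above and 1 below (median 0.47). No gene was called among 9 growth factor (median -0.20), 13 glycolysis and hypoxia (-0.030), 9 MHC class II (0.30), 16 complement (-0.057), 6 osteopontin receptor and integrin (0.12), 12 alveolar (-0.084), 10 interstitial (0.71), 4 monocyte or 7 cell cycle genes (0.73). Over all genes tested the median was 0.0092. The sums of WT replicate 2 rest on 6 cells.

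*Fn1* did not separate the genotypes, at 2421 and 2042 in WT and 2245 and 2604 in *Tubb3*-/- mice (0.12, adjusted p = 0.971). Of the genes that the study followed elsewhere, none tested was called. *Tgfb1*, a growth factor known to drive fibrosis, was at 297 and 198 against 262 and 235 (-0.04, adjusted p = 1.00), and *Il6* at 68.4 and 13.7 against 54.7 and 70.1 (0.32, adjusted p = 0.970). *Cxcl10*, the ligand of CXCR3, was at 2.97 and 0 in WT and 34.7 and 209 in *Tubb3*-/- mice (adjusted p = 0.448), with 1 UMI against 170 in all, a ratio of 50.5 (counting interval 8.95 to 2007). Of the *Cxcl10* UMIs of *Tubb3*-/- replicate 2, 83.2% were in 1 cell. *Tnf* was at 23.8 and 20.5 against 7.36 and 18.3, and *Cxcr3* and *Ifng* had no UMI.

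Finally, the genotype change in the chosen cells was tested against that in alveolar macrophages of the same mice, as an interaction of population and genotype. Of 9871 genes, 38 had a higher (0.385%) and 3 a lower (0.0304%) *Tubb3*-/- to WT difference in the *Spp1*+ *Arg1*+ macrophages, with a median difference of 0.054 over all genes tested. *Mmp12* was called (log2 difference 4.68, SE 0.63, adjusted p = 0.00026), with alveolar macrophages at 5.45 and 59.2 in WT and 17.4 and 122 in *Tubb3*-/- mice, and so was *Cd36* (1.83), at 39.0 and 79.3 against 120 and 151 in chosen cells and 159 and 296 against 128 and 172 in alveolar macrophages. *Tagln* (6.49), *Acta2* (5.49) and *Myh11* (5.54) of the mural list were called, as were *Hspa1a* (2.59), *Egr1* (1.95) and *Atf3* (1.45) of 16 stress genes, the last missing the threshold without *Tubb3*-/- replicate 2 (1.39, adjusted p = 0.0902). Without the 4 cells of high *Tagln* 5 genes were called in all, and *Cd36* (1.72, adjusted p = 0.0968), *Hspa1a* (2.28, adjusted p = 0.246), *Egr1* (0.90, adjusted p = 0.869) and *Atf3* (1.29, adjusted p = 0.148) were not among them. *Mmp12* missed the threshold with DESeq2 (4.50, adjusted p = 0.448). With the thinned rule 2 genes were called, and with the 4 excluded genes dropped from the rule 0 were called, with 649 at an unadjusted p under 0.05.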

How the data were processed

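Single-cell RNA-seq (10x Genomics 3′ with CellPlex tags) of mouse lung was analysed from 8 matrices of counts of UMIs per gene and cell, which the authors deposited without normalization. Per the submitters' processing notes they were made with Cell Ranger 7.1.0 on mm10 with an added *Cre* gene, and tag counts were set aside. The 2 samples that hold tag libraries belong to no group and were not used here. Replicates were single mice, and the whole-cell and mural cell-enriched libraries of a mouse were added for tests of genes. Members, populations and 27 gene lists (335 genes) were chosen with earlier results of these data known.

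Cells with 200 to 7500 genes and at most 15% mitochondrial UMIs were kept, and all populations were taken by UMI thresholds without clustering. Cells for which Scrublet (scanpy 1.11.5, run per pool) called a doublet were kept and removed as an alternative. To compare shares of cells with a UMI, cells were thinned to 10000 UMIs and shallower cells left out, which kept 81 of 81 chosen cells, 470 of 481 alveolar macrophages, 262 of 340 interstitial macrophages and 383 of 1528 T cells.

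UMIs were summed per mouse and population and tested with edgeR 4.0.16 (R 4.3.3, filterByExpr, TMM, quasi-likelihood test, Benjamini-Hochberg over all genes tested), with the mouse as a block between populations. Genes of the thresholds were left out of calls. Normalized levels are CPM (UMIs per 1000000) scaled by TMM within a comparison, and other levels are plain CPM. The test was checked on simulated data with 200 changed genes: it recovered 56% of changes of 1.5 and 95% of changes of 3 on the log2 scale for the genotype comparison (6206 genes), 98% and 100% against alveolar macrophages (9088 genes) and 57% and 96% for the interaction (9879 genes). False calls numbered 3, 9 and 5. The changed genes were drawn from the more abundant ones. Single cells that hold most of a gene's UMIs were not simulated, so the recovery in the real sums may be lower. Genotype shares were compared with an exact permutation test (scipy 1.17.1). With 2 mice in each group, the edgeR p-values rest on the spread between these mice together with variance estimates shared across genes.

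The rule for named genes took, in each comparison, the 10 strongest called increases and the 10 strongest called decreases. These needed a mean of 20 normalized CPM or more and groups that did not overlap. Where fewer than 5 genes were called, the 10 with the smallest p were taken. From each list, up to 4 called genes with the largest change and a mean of at least 10 were named, or the most abundant where none was called, together with genes the study followed. Further called list members are named without a choice by this rule, after their values were seen. Alternatives were DESeq2 1.42.0, RLE normalization, no filter on low counts, other thresholds, single libraries, a replicate block and leaving out each mouse. Gene positions are those of GENCODE for GRCm38.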

Additional observations from a re-analysis of the deposited data

Results flagged for a closer look

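The difference in genotype change between Spp1+ Arg1+ and alveolar macrophages was called for 41 genes by the interaction test of edgeR, which is a difference between populations under the same contrast. Of the genes named, those with a higher Tubb3-/- to WT difference in the chosen cells were *Pcdh7* (11.64 on the log2 scale), *Wwtr1* (8.39), *Sgcd* (6.89), *Tagln* (6.49), *Myl9* (5.62), *Myh11* (5.54), *Acta2* (5.49), *Tpm2* (5.23), *Ogn* (4.96) and *Mmp12* (4.68). *Pcdh7* and *Wwtr1* had no UMI in the WT chosen cells, so their fitted values depend on the prior count. By counting of UMIs alone they were at least 14.96-fold and at least 2.97-fold higher in Tubb3-/- chosen cells. The 4 cells of high *Tagln* held 934 *Acta2*, 237 *Tpm2* and 172 *Myh11* UMIs, against 153, 57 and 28 in the other 77 chosen cells. For *Pcdh7*, *Myl9* and *Sgcd* they held 132, 127 and 80, against 19, 27 and 15. Without these 4 cells, left out after their values were seen, 5 genes were called in all.

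A lower difference was found for the neutrophil collagenase *Mmp8* (-2.96), which was at 93.0 and 178 normalized CPM in WT and 31.6 and 22.9 in Tubb3-/- chosen cells, against 49.1 and 40.7 and 71.5 and 85.9 in alveolar macrophages. *Wfdc17* (-1.52) was at 2439 and 1063 in WT and 1596 and 1274 in Tubb3-/- chosen cells, against 339 and 201 and 689 and 632 in alveolar macrophages. The third was *Cyp51* (-1.49), an enzyme of cholesterol synthesis.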

How the results depend on the processing

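The 2 genes called between genotypes became 8 with DESeq2, 132 with no filter on low counts, 1 with whole-cell libraries alone, 1 with the cells of at least 20 *Tagln* UMIs left out and 0 with the rule without the 4 excluded genes (edgeR, 460 at an unadjusted p under 0.05), the last 2 chosen after seeing the data. Leaving out each mouse gave 1 to 84. The replicate numbers were not shown to pair the mice (correlation of deviations 0.00236), and a replicate block gave 69 genes. Against alveolar macrophages the 498 calls became 945 with no filter, 896 without the excluded genes and 257 to 627 without each mouse, the low values being those without Tubb3-/- replicate 1 (287) and 2 (257). Against interstitial macrophages the 1609 became 1166 with whole-cell libraries alone, 938 with the rule on thinned UMIs and 943 to 1528 without each mouse, the lowest without WT replicate 1 (943) and Tubb3-/- replicate 1 (1016). Against Ly6c2+ Ccr2+ cells the count was 2089 to 2353 without each mouse. The 41 interaction calls became 12 with DESeq2, 99 with no filter, 6 with whole-cell libraries alone, 20 with doublets removed, 2 with the thinned rule, 0 without the excluded genes, 5 with the high-*Tagln* cells left out and 34 to 131 without each mouse (131 and 104 without WT replicate 1 and 2, 83 without Tubb3-/- replicate 1). Reversals were *Hbb-bs* against alveolar macrophages with the thinned rule (0.038) and *Tagln* against Ly6c2+ Ccr2+ cells with whole-cell libraries alone (-0.17), the thinned rule (-0.20) and the high-*Tagln* cells left out (-1.10). The causes were not tested. The log2 ratio of shares stayed above 0, at 0.74 to 1.62 of kept cells and 0.85 to 1.85 of Ptprc+ Cd68+ cells without each mouse. With 81 cells, 6 of them from WT replicate 2, the depth of the WT sums (504087 UMIs) sets the limit: a gene with no UMI there may lie at up to 5.95 CPM.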
